A study of Rattus norvegicus with 13 samples.

Results

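Mitosis and spindle genes encode the kinases, motor proteins, checkpoint proteins and chromosome scaffolds with which a cell divides its duplicated chromosomes. A list of 43 gene names was drawn up from their known roles. A member was kept when a row carried its name and averaged 10 normalized counts or more. This held for 42 of the 43 names, among 14716 rows in all, and each was found on exactly 1 row. *Ndc80* is not analysed here. RNA came from the posterior ventricular zone (VZ), the layer of progenitor cells lining the lateral ventricle, of Long Evans rat pups on postnatal day 2 (PN2). The strip was cut by laser from cresyl violet stained sections of both hemispheres, by its pseudostratified look. The 7 control pups were euthyroid males whose dams drank water alone. The 6 PTU pups were hypothyroid males, born to dams given the thyroid hormone synthesis inhibitor propylthiouracil (PTU) at 3 ppm in their water. No litter gave more than 1 pup, no female was sequenced, and the methods of the study describe partly degraded RNA in these captures.

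Radial glia are the progenitors of the VZ. They divide at the ventricular surface, where the spindle separates the chromosomes and its orientation is set against the apical membrane. CDK1 with its cyclins starts mitosis, and the spindle checkpoint then holds the anaphase promoting complex (APC/C) back until every chromosome is attached. Transcripts of this machinery are made late in the cell cycle and are scarce in cells that have left it. In bulk RNA, fewer dividing cells and less RNA of these genes per cell cannot be told apart.

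Levels are given as normalized counts, for which the authors divided estimated counts by a size factor for each pup. They depend on transcript length, so they are compared between pups only. The reads behind them, estimated from the step between low values, ranged from 22295672 to 43513101 per control pup and from 28415338 to 44388405 per PTU pup. Between 23.9 and 60.1% of the totals lay in 3 rows without a gene name. Of 12 radial glia markers, 11 were measured, among them the stem cell transcription factor *Sox2*, at 7107 ± 1050.4 normalized counts over the controls (SD, n = 7) and 6701 ± 969 over the PTU pups (SD, n = 6).

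Cell cycle genes that peak in mitosis are known to share promoter elements, among them the cell cycle genes homology region (CHR), searched here by the letters TTTGAA, and the CCAAT box. Promoter sequences from RefSeq (build GRCr8) were matched by symbol to 37 of the 42 genes, in 38 entries, since *Kif2c* had 2. *Ccna2*, *Aurkb*, *Tpx2*, *Incenp* and *Ube2c* had no entry. Within the 250 bases before the start, on either strand, TTTGAA was present in 19 of the 38 (50%), beside 16.2% of all 33469 entries. CCAAT was present in 29 (76.3%) beside 34% of all. Both were present in 18 (47.4%) beside 5.87%. A match of one motif can overlap the other by 1 base at most. Of 24 CHR matches before these genes, 22 began within 125 bases of the start (91.7%, beside 42.8% of the matches in all entries). For CCAAT these shares were 58.7% and 54%. A match describes the letters and is not a site shown to be bound. To show how the motifs are placed, the promoters of the first 4 genes in list order that held both are printed, 5′ to 3′ up to the base before the start. Capitals mark TTTGAA or its complement TTCAAA, and CCAAT or its complement ATTGG.
Cdk1: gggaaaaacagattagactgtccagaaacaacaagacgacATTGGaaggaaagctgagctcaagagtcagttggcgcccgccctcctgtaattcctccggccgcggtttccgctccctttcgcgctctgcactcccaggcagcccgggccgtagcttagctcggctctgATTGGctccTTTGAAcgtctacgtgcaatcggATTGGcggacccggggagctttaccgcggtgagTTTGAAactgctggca
Ccnb2: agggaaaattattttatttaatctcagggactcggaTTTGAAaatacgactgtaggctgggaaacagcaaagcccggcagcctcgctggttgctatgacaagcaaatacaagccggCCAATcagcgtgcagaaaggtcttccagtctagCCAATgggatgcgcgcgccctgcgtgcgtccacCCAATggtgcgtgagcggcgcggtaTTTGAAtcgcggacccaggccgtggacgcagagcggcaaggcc
Cdc20: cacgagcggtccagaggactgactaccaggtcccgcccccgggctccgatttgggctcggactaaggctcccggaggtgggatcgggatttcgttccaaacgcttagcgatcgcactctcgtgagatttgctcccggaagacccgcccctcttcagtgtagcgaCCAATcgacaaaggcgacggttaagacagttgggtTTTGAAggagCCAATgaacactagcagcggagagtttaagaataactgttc
Cdc25c: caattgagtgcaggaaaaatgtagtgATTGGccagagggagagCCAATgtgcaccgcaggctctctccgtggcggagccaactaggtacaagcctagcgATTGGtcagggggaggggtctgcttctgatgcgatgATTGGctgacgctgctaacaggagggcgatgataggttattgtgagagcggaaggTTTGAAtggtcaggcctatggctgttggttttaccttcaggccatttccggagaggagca
In GRCr8 these stretches lie at chr20:19265043-19265292 (+ strand) for *Cdk1*, chr8:79981659-79981908 (- strand) for *Ccnb2*, chr5:137255800-137256049 (- strand) for *Cdc20* and chr18:26630293-26630542 (- strand) for *Cdc25c*. The reads were aligned to another build, mRatBN7.2, and the RefSeq start may differ from that of the counted transcript. *Cdk1* and *Ccnb2* each held 2 CHR and 3 CCAAT matches, *Cdc20* 1 and 2, and *Cdc25c* 1 and 4.

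**Figure D1:**
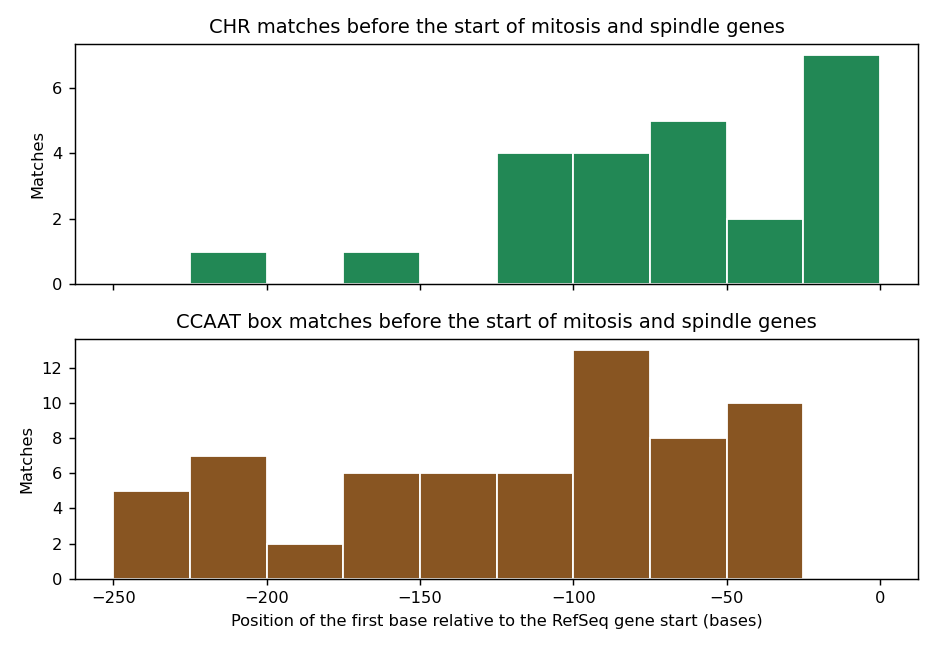
Number of CHR (upper panel) and CCAAT box (lower panel) matches by position of their first base relative to the RefSeq start, in bins of 25 bases, over 38 promoter entries of mitosis and spindle genes. Of 24 CHR matches 22 lie within 125 bases of the start, whereas 37 of 63 CCAAT matches do.

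No mitosis or spindle gene passed the test between PTU and control pups, and the 2 with the lowest p, *Ube2c* and *Aurkb*, had differences of opposite sign. In limma, 0 of the 42 had an adjusted p of at most 0.05, as had 0% of all 14606 rows tested. That 0% belongs to this fit. The authors' own comparison of the same pups, by DESeq2, did call genes at an FDR of at most 0.05. Among the 42 the smallest adjusted p in limma was 0.208 and the median 0.825. Without adjustment, only these 2 had a p under 0.05, whereas 16.3% of all rows had one. The groups overlapped in all 42 genes, while in 0.596% of all rows they did not.

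Log2 differences are given as PTU minus control, on the scale of log2(normalized count + 1). They were above 0 for 24 members and below 0 for 18, and ran from -0.37 to 0.49. Their median was 0.014, beside 0.0038 over all rows. With equal totals in place of size factors these medians were 0.21 and 0.20, so the scaling shifts every count of directions given here. It brought all members below 0 except *Aurkb* above it, and relative to the median of all rows 23 members were then above and 19 below. In 39 of 42 the difference was smaller than 1 SD between pups of a group, *Aurkb*, *Birc5* and *Ube2c* being the others. The 95% confidence interval lay wholly between -0.5 and 0.5, a factor of 1.41 either way, for 34 of the 42. It reached beyond for *Ccnb1*, *Ccnb2*, *Aurkb*, *Ttk*, *Cdc25c*, *Cenpa*, *Birc5* and *Ube2c*.

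**Figure D2:**
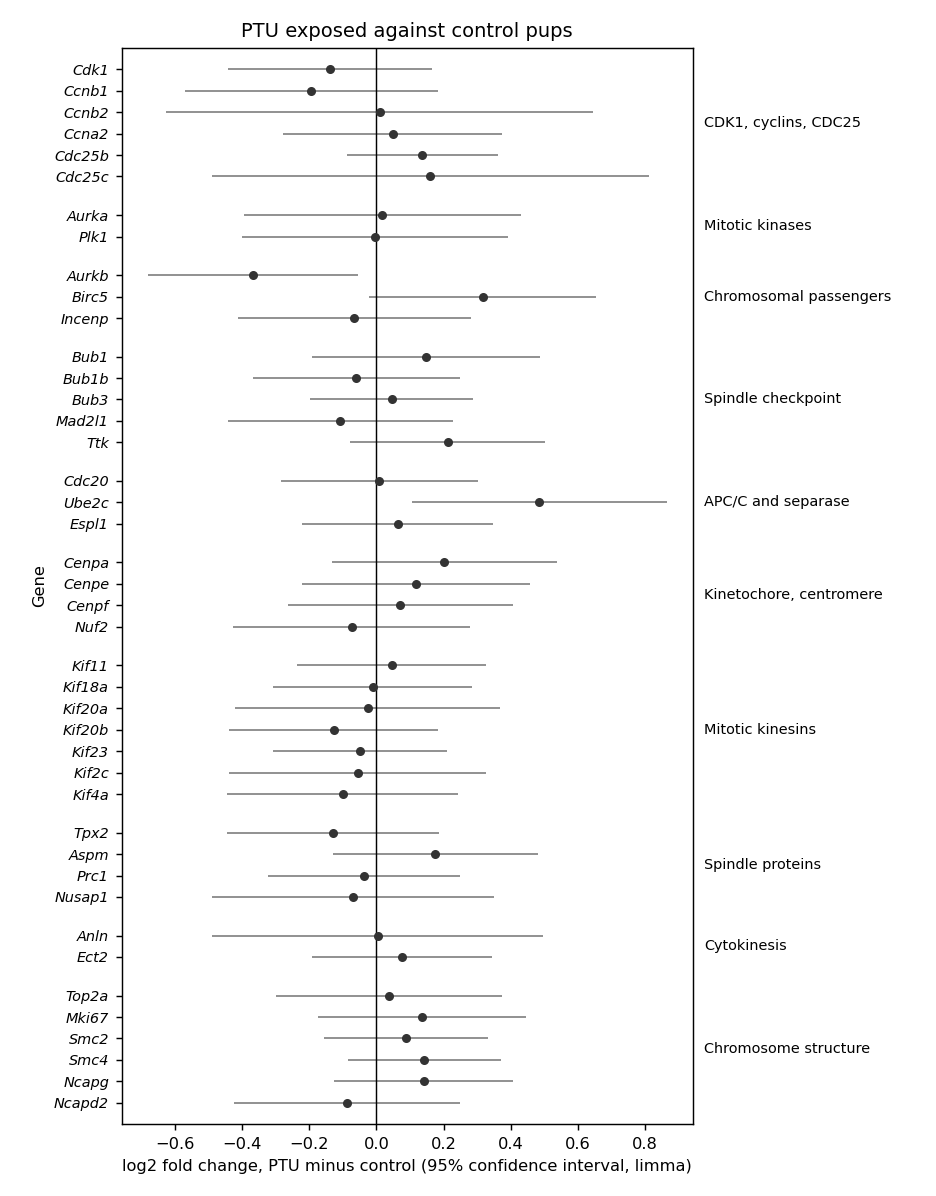
Log2 difference (PTU minus control, horizontal axis) of 42 mitosis and spindle genes grouped by role, with the 95% confidence interval from limma (7 control and 6 PTU pups). The interval includes 0 for 40 genes, lies below 0 for *Aurkb* and above 0 for *Ube2c*.

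CDK1 drives entry into mitosis once bound to a B-type cyclin and freed of inhibitory phosphate by a CDC25 phosphatase. Of these 6 genes, 4 had log2 differences above 0 and 2, *Cdk1* and *Ccnb1*, below. *Cdk1* held 479 to 829.3 normalized counts across controls (median 768), against 515 to 800.0 across PTU pups (median 603). The groups overlapped widely, with 4 of 6 PTU pups below the control mean, and the log2 difference was -0.14 ± 0.14 (SE, adjusted p = 0.659). The mitotic cyclin *Ccnb1* had a control median of 1155 normalized counts (lowest 681, highest 1495) and a PTU median of 995 (lowest 656, highest 1433). Here 5 of 6 PTU pups were below the control mean, for a log2 difference of -0.19 ± 0.18 (SE, adjusted p = 0.611). *Ccna2*, the cyclin of S phase and early mitosis, differed by 0.048 ± 0.15 (SE, adjusted p = 0.904). The phosphatase *Cdc25b* was the steadiest member between pups, with 415 to 569 normalized counts across controls (median 483), against 454 to 603 across PTU pups (median 547). Its log2 difference was 0.14 ± 0.11 (SE, adjusted p = 0.539). *Cdc25c*, a related phosphatase, was the least steady, spanning a factor of 3.77 over the 13 pups without parting the groups (0.16, adjusted p = 0.831). The row of *Ccnb2* (ENSRNOT00000118940) had the lowest values of all members, 22.9 to 53.4 normalized counts across controls (median 32.2), against 28.1 to 46.9 across PTU pups (median 33.5). Its log2 difference was 0.0098 ± 0.30 (SE, adjusted p = 0.991).

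Aurora A and Polo-like kinase mature the centrosomes and build the bipolar spindle. *Aurka* held 316 to 603 normalized counts across controls (median 437), against 242 to 553 across PTU pups (median 470.4), a log2 difference of 0.017 ± 0.20 (SE, adjusted p = 0.973). *Plk1* had a control median of 751 normalized counts (lowest 455, highest 1079) and a PTU median of 807 (lowest 469, highest 839), a log2 difference of -0.0053 ± 0.19 (SE, adjusted p = 0.993). For both kinases PTU pup 1 was the lowest of its group and control pup 5 the lowest control, so both groups spanned a wide and shared range.

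The chromosomal passenger complex joins the kinase Aurora B (*Aurkb*) with the scaffold INCENP and survivin (*Birc5*), corrects faulty attachments and later acts at the midzone. *Aurkb* (ENSRNOT00000008492) held 1113 to 2026 normalized counts across controls (median 1384), against 992 to 1575 across PTU pups (median 1063). PTU pup 2 was the single PTU pup above the control mean, and the other 5 lay between 992 and 1159.7, around the 2 lowest controls. The log2 difference was -0.37 ± 0.15 (SE, adjusted p = 0.242), with a 95% confidence interval of -0.68 to -0.055, and the exact permutation test (two-sided, 7 against 6 pups) gave an unadjusted p of 0.0565. *Birc5* had the opposite sign, with 333 ± 52.4 normalized counts over the controls (SD, n = 7) and 421 ± 95.8 over the PTU pups (SD, n = 6). Its log2 difference was 0.32 ± 0.16 (SE, adjusted p = 0.333), with an exact permutation p of 0.0798 and 5 of 6 PTU pups above the control mean. *Incenp* had a control median of 1573 normalized counts (lowest 1032, highest 1997) and a PTU median of 1475 (lowest 971, highest 1766), a log2 difference of -0.066 ± 0.16 (SE, adjusted p = 0.875). The 3 partners of this complex thus had differences of unlike sign, none past the threshold after adjustment.

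The 5 spindle checkpoint genes had log2 differences from -0.11 to 0.21, 3 above 0 and 2 below. *Ttk*, the kinase that starts checkpoint signaling at kinetochores, held 393 to 657 normalized counts across controls (median 543), against 454 to 754 across PTU pups (median 592). In 5 of 6 PTU pups it was above the control mean, for a log2 difference of 0.21 ± 0.14 (SE, adjusted p = 0.45). *Bub3*, which recruits the BUB kinases, varied least among the 5 and had a control median of 529 normalized counts (lowest 401, highest 645) and a PTU median of 517 (lowest 482, highest 553). Its log2 difference was 0.045 ± 0.11 (SE, adjusted p = 0.878). The checkpoint kinase *Bub1*, its relative *Bub1b* and *Mad2l1*, which inhibits APC/C, differed by 0.15, -0.059 and -0.11 (adjusted p = 0.672, 0.874 and 0.768).

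*Ube2c*, the ubiquitin conjugating enzyme that works with APC/C to destroy cyclins, had the largest difference of the 42. Its row (ENSRNOT00000118238) held 307, 411, 373, 335, 203, 479.5 and 324 normalized counts in control pups 1 to 7. In PTU pups 1 to 6 it held 394, 421, 595, 585, 517 and 375. All 6 PTU pups exceeded the control mean of 348, but control pups 2 and 6 reached into the PTU range. The log2 difference was 0.49 ± 0.18 (SE, adjusted p = 0.208), with a 95% confidence interval of 0.11 to 0.86, and the exact permutation test gave an unadjusted p of 0.0256 (two-sided). The APC/C activator *Cdc20* had a control median of 883 normalized counts (lowest 712, highest 1217) and a PTU median of 923 (lowest 657, highest 1248), a log2 difference of 0.0088 ± 0.14 (SE, adjusted p = 0.982). Separase (*Espl1*), the protease that cuts cohesin at anaphase, differed by 0.063 ± 0.13 (SE, adjusted p = 0.847).

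Centromere and kinetochore proteins link chromosomes to spindle fibers, and 3 of these 4 genes had log2 differences above 0. *Cenpa*, the histone variant that marks centromeres, held 259 to 368 normalized counts across controls (median 337), against 228 to 448 across PTU pups (median 391). Its log2 difference was 0.20 ± 0.16 (SE, adjusted p = 0.541), and PTU pup 1 was the 1 PTU pup below the control mean. *Nuf2*, a part of the outer kinetochore, had a control median of 695 normalized counts (lowest 567, highest 1057) and a PTU median of 727 (lowest 514, highest 944), a log2 difference of -0.073 ± 0.17 (SE, adjusted p = 0.86). *Cenpf* and the kinetochore motor *Cenpe* differed by 0.072 and 0.12 (adjusted p = 0.854 and 0.747).

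Mitotic kinesins are motors that slide or shorten spindle fibers. Among the 7, 6 had log2 differences below 0 and 1 above, all between -0.13 and 0.045 and none with an unadjusted p under 0.05. *Kif20b*, which acts in cytokinesis, held 801 to 1365 normalized counts across controls (median 1009.5), against 733 to 1206 across PTU pups (median 968), a log2 difference of -0.13 ± 0.15 (SE, adjusted p = 0.693). *Kif18a*, which aligns chromosomes, had a control median of 499 normalized counts (lowest 386, highest 608) and a PTU median of 511 (lowest 375, highest 614), a log2 difference of -0.011 ± 0.14 (SE, adjusted p = 0.976). The kinesin above 0 was *Kif11*, which pushes the spindle poles apart (0.045, adjusted p = 0.896). The midzone motors *Kif20a*, *Kif23* and *Kif4a* differed by -0.026, -0.049 and -0.10, and the fiber shortening *Kif2c* by -0.056 (adjusted p from 0.791 to 0.956).

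Spindle proteins organize the fibers at poles and midzone. *Aspm*, a pole protein known from inherited microcephaly, held 2918 to 5694 normalized counts across controls (median 4505), against 3429 to 5554 across PTU pups (median 5114). In 5 of 6 PTU pups it was above the control mean, for a log2 difference of 0.18 ± 0.14 (SE, adjusted p = 0.561). *Prc1*, which bundles midzone fibers, had a control median of 3568 normalized counts (lowest 2678, highest 5011) and a PTU median of 3486 (lowest 2642, highest 4418), a log2 difference of -0.038 ± 0.14 (SE, adjusted p = 0.917). *Tpx2*, an activator of Aurora A, lay below the control mean in all 6 PTU pups, with 1845 to 3977 normalized counts across controls (median 3069), against 1927 to 2737 across PTU pups (median 2706). Control pup 5 nevertheless was lower than all 6 PTU pups, and control pup 7 was lower than 5 of the 6. The log2 difference was -0.13 ± 0.15 (SE, adjusted p = 0.69). *Nusap1*, a fiber binding protein, differed by -0.070 ± 0.20 (SE, adjusted p = 0.892).

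Of the cytokinesis genes, *Ect2*, which triggers the contractile ring, held 801 to 1121 normalized counts across controls (median 958), against 667 to 1251 across PTU pups (median 1057), a log2 difference of 0.075 ± 0.13 (SE, adjusted p = 0.801). *Anln*, a scaffold of that ring, had a control median of 211 normalized counts (lowest 148, highest 322) and a PTU median of 231 (lowest 126, highest 299). Its log2 difference of 0.0037 ± 0.23 (SE, adjusted p = 0.996) was the nearest to 0 of all members.

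Chromosome structure genes included the markers most used for proliferation, and 5 of the 6 had log2 differences above 0. *Mki67*, which coats mitotic chromosomes, held 9227 to 17086 normalized counts across controls (median 13726), against 10207 to 16682 across PTU pups (median 15424). PTU pup 1 and control pups 5 and 7 were the low ones, at 10207, 9227 and 10297, and the log2 difference was 0.14 ± 0.15 (SE, adjusted p = 0.67). *Top2a*, the enzyme that untangles sister chromatids, had a control median of 8614 normalized counts (lowest 5184, highest 10452) and a PTU median of 8409 (lowest 5682, highest 9751), a log2 difference of 0.037 ± 0.16 (SE, adjusted p = 0.932). *Smc4*, a condensin core subunit, held 2686 to 3757 normalized counts across controls (median 2993), against 2695 to 4114 across PTU pups (median 3460.0), a log2 difference of 0.14 ± 0.11 (SE, adjusted p = 0.524). The condensin partners *Smc2*, *Ncapg* and *Ncapd2* differed by 0.088, 0.14 and -0.088 (adjusted p = 0.735, 0.599 and 0.819).

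**Figure D3:**
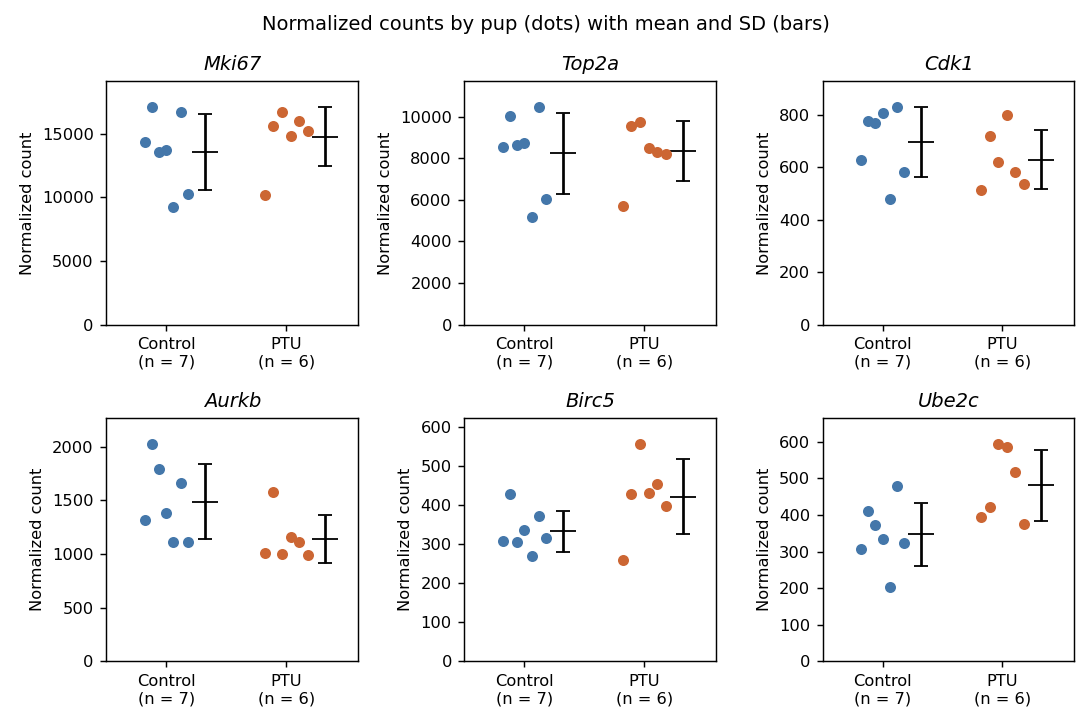
Normalized counts (vertical axis, from 0) of 6 mitosis and spindle genes in 7 control (blue) and 6 PTU (orange) pups, each dot a pup, with the mean and SD as black bars. The groups overlap in every panel; *Ube2c* (control mean 348, PTU mean 481) and *Aurkb* (1487 and 1141) had the lowest unadjusted p.

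The members varied more from pup to pup than between groups, and they did so together. The highest pup exceeded the lowest by a factor between 1.45 (*Cdc25b*) and 3.77 (*Cdc25c*), with a median of 2.03. In control pup 5 all 42 genes were below their own median over the 13 pups, in control pup 7 this held for 41, and in PTU pup 1 for 37. At the other end, 38 genes were above their median in control pup 2, 35 in PTU pup 2 and 33 in control pup 6. The remaining 7 pups had between 16 and 25 genes above it. Control pup 5 was the lowest control for 32 genes, and PTU pup 1 the lowest PTU pup for 33. The first principal component of the values centred within groups held 64.4% of the variance of the members and 21.1% of that of all rows. The genes share the libraries and their scaling, so they are not independent. The 3 low pups had 41290861, 34021540 and 28415338 estimated reads, within the range of the other pups. *Cdc25c* departed from the pattern, at 130.3 normalized counts in PTU pup 1 and 54 in control pup 2.

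**Figure D4:**
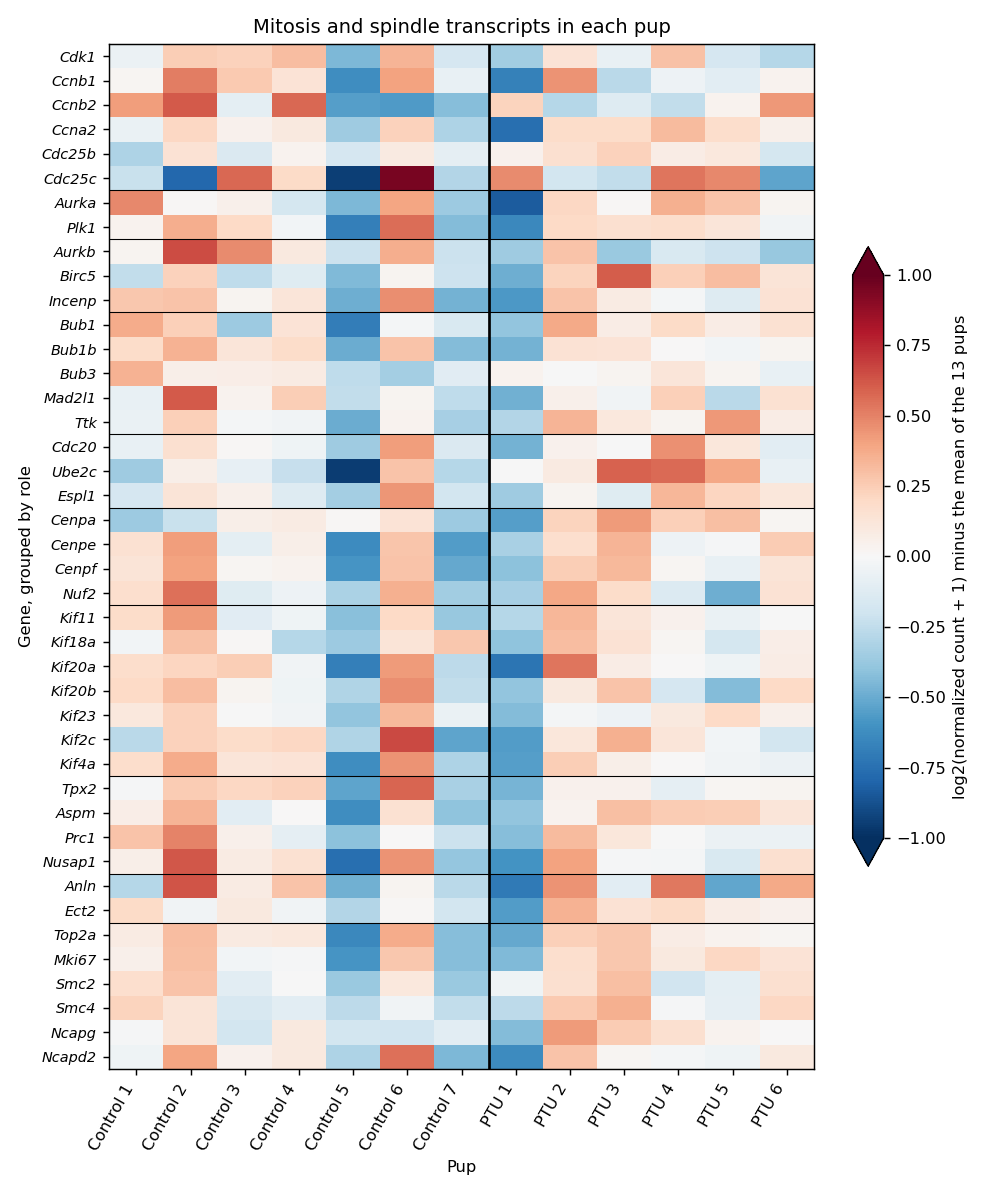
Log2(normalized count + 1) of each of 42 genes (rows, grouped by role) in each of 13 pups (columns), minus the mean of that gene over the pups; red is above and blue below, and the black line parts control from PTU pups. Control pups 5 and 7 and PTU pup 1 are blue over nearly all rows, while control pups 2 and 6 are mostly red; *Cdc25c* and *Ccnb2* depart from this pattern.

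Mean centred log2 values over the 42 genes give this order. In control pups 1 to 7 they were 0.046, 0.27, 0.038, 0.052, -0.46, 0.25 and -0.29, and in PTU pups 1 to 6 -0.40, 0.20, 0.12, 0.11, 0.017 and 0.039. The groups averaged -0.013 ± 0.27 (SD, n = 7) and 0.015 ± 0.21 (SD, n = 6), a difference of 0.028. Without PTU pup 1 the difference was 0.11, and without control pup 5 it was -0.046, so its sign rested on single pups. With PTU pup 1 left out, *Birc5*, *Ube2c*, *Cenpa*, *Ttk* and *Ncapg* were higher with an unadjusted p under 0.05, beside 6.64% of all rows. *Aurkb* was lower, beside 7.67%, and the 6 members compare with 14.3% of all rows in either direction. Their adjusted p in limma ran from 0.182 to 0.339. Leaving out PTU pup 2, the high pup for *Aurkb*, gave that gene -0.46 ± 0.14 (SE, adjusted p = 0.0881). Without control pup 3, PTU pup 3 or PTU pup 6, *Ube2c* alone had an unadjusted p under 0.05, beside 12.6, 14.2 and 12.3% of all rows. Without PTU pup 2 no member passed the adjusted threshold, while 1.23% of all rows did.

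Genes that work in pairs were compared across pups after centring within groups. *Mki67* and *Top2a* had a Pearson r of 0.98 and a Spearman rho of 0.82 (n = 13, permutation p = 5e-05 and 0.0019, adjusted p = 0.0003 and 0.0028). *Cdk1* and *Ccnb1*, the subunits of the mitotic kinase, had an r of 0.78 and a rho of 0.71 (permutation p = 0.0029 and 0.013, adjusted p = 0.0035 and 0.013). The condensin arms *Smc2* and *Smc4* had an r of 0.84 and a rho of 0.88 (permutation p = 0.00085 and 0.00031, adjusted p = 0.0017 and 0.00093). Adjustment covered these 3 relations with 2 measures each, all two-sided. Each relation kept its sign without the 2 pups farthest from the median of the first gene, where r was 0.94, 0.73 and 0.83. Among control pups r was 0.99, 0.92 and 0.91, and among PTU pups 0.95, 0.58 and 0.82. The first component held 64.4% of the variance of all 42 members, so genes without such a partnership could also correlate. Whether these 3 pairs correlated more than other members did was not tested.

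A separate list held 75 further mitosis genes, of which 72 were measured. None passed the adjusted threshold, 47 had log2 differences above 0 and 25 below, and the median was 0.065. Without control pup 5 the median was -0.0048, with 34 above 0, and without PTU pup 1 it was 0.14, with 57 above 0. Of the 72, 4 had an unadjusted p under 0.05, all higher, beside 8.11% of all rows in that direction. In either direction this number was 7 without PTU pup 1, beside 14.3% of all rows, and 3 without control pup 3, beside 12.6%. *Zwint*, a kinetochore adaptor, had the smallest p, with 9876 ± 831 normalized counts over the controls (SD, n = 7) and 13160 ± 2621 over the PTU pups (SD, n = 6), a log2 difference of 0.40 ± 0.11 (SE, adjusted p = 0.133). Its highest pup was PTU pup 1, at 17939.8 normalized counts beside a PTU median of 11943, and its highest control was pup 7, at 11522. In both pups most members were low. PTU pup 1 had the highest neuron marker level, 1.55 on the mean centred log2 scale, whereas control pup 7 stood at 0.15, below control pup 1 at 0.26. The part of neurons in the level of *Zwint* was not tested. Also among the 4 were *Fzr1*, the APC/C activator of late mitosis, and *Cks1b*, a CDK binding subunit. *Ska1*, which couples kinetochores to fibers, had the largest p, with a log2 difference of -0.00050 ± 0.15 (SE, adjusted p = 1).

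Lists of neighboring steps of the cycle also held no gene past the adjusted threshold. Of 12 measured APC/C and partner subunits, 9 had log2 differences above 0; *Anapc13* had the smallest p, with 0.37 ± 0.13 (SE, adjusted p = 0.176), and *Anapc7* the largest, with 0.027 ± 0.091 (SE, adjusted p = 0.909). The 10 cohesin genes, whose products hold sister chromatids together, were split evenly, with *Pds5b* at 0.23 ± 0.086 (SE, adjusted p = 0.207) and *Stag1* at -0.024 ± 0.097 (SE, adjusted p = 0.928). Among 23 DNA replication genes 16 were above 0, with the helicase subunits *Mcm4* at 0.29 ± 0.11 (SE, adjusted p = 0.194) and *Mcm3* at -0.0028 ± 0.14 (SE, adjusted p = 0.995). The 10 genes of cell cycle exit, CDK inhibitors among them, had 5 differences above and 5 below 0. Of these *Cdkn1c* had the smallest p, with -0.29 ± 0.18 (SE, adjusted p = 0.434), and *Btg2* the largest, with 0.0075 ± 0.17 (SE, adjusted p = 0.988).

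Markers of cell identity are given beside the division genes, since a captured strip can hold other cells than dividing ones. All 11 radial glia markers had log2 differences below 0, with a median of -0.29, and 6 had an unadjusted p under 0.05, beside 8.20% of all rows in that direction. None passed after adjustment in limma. The smallest p was that of *Hes1*, a Notch target, with -0.58 ± 0.16 (SE, adjusted p = 0.143), and the largest that of *Sox2*, with -0.084 ± 0.11 (SE, adjusted p = 0.736). All 10 neuron markers were above 0, with a median of 0.39 and 5 with an unadjusted p under 0.05, beside 8.11% of all rows in that direction. The smallest p was that of the growth cone gene *Stmn2*, with 0.48 ± 0.17 (SE, adjusted p = 0.182). *Neurod6* had the largest p, with 0.0049 ± 0.47 (SE, adjusted p = 0.997). In an alternative chosen after seeing the data, single pups were left out of these lists. Without PTU pup 1 the mean over the neuron markers was 0.30 in place of 0.55, with 9 of 10 above 0 and 3 with an unadjusted p under 0.05, beside 14.3% of all rows in either direction. That number also was 3 without PTU pup 6, beside 12.3% of all rows, and without control pup 5, beside 13.5%. Without PTU pup 2, the ependymal marker *Dynlrb2* and *Hes1* passed the adjusted threshold in limma (adjusted p = 0.0252 and 0.0499), as did 1.23% of all rows. The 8 choroid plexus markers were all below 0, with a median of -0.72, which fell between -0.96 and -0.49 with a pup left out. Of the 8, 4 had an unadjusted p under 0.05, beside 8.20% of all rows in that direction. This number was 2 without control pup 3, beside 12.6% of all rows in either direction, and 5 without PTU pup 1, beside 14.3%. The study states that choroid plexus cells were not part of the RNA-Seq captures, yet these markers were measured in both groups. Of the other lists, intermediate progenitor markers had 5 of 6 below 0, ependymal markers 4 of 5, oligodendrocyte precursor markers 0 of 5, endothelial markers 1 of 6 and microglia markers 3 of 7. Such counts can rest on single pups. Microglia markers above 0 numbered 4 with all pups, 6 without control pup 1 and 2 without PTU pup 2. Endothelial markers above 0 numbered 5 with all pups, 4 without control pup 2 and 6 without PTU pup 2. No erythrocyte marker of 5 had a row. Whether the lists differ from one another was not tested.

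The 3 pups low in mitosis and spindle transcripts were unlike in these markers. PTU pup 1 had the highest neuron marker level, 1.55 on the mean centred log2 scale, a summed level of 122864 normalized counts, and radial glia markers at -0.44. Control pup 5 had the lowest neuron markers, -0.93, a summed level of 53514 normalized counts, and the highest radial glia markers, 0.40. Control pup 7 lay between them, at 0.15 and 0.076. By group, neuron markers summed to between 53514 and 77409.9 normalized counts per control pup and between 70288 and 122864 per PTU pup. Radial glia markers summed to 84612 to 114491 and 70417 to 91870, and choroid plexus markers to 48559 to 136842 and 22599 to 97073. No measured marker of these 3 lists was at 0 in every pup. The part of these cell types in the level of the mitosis genes was not tested.

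**Figure D5:**
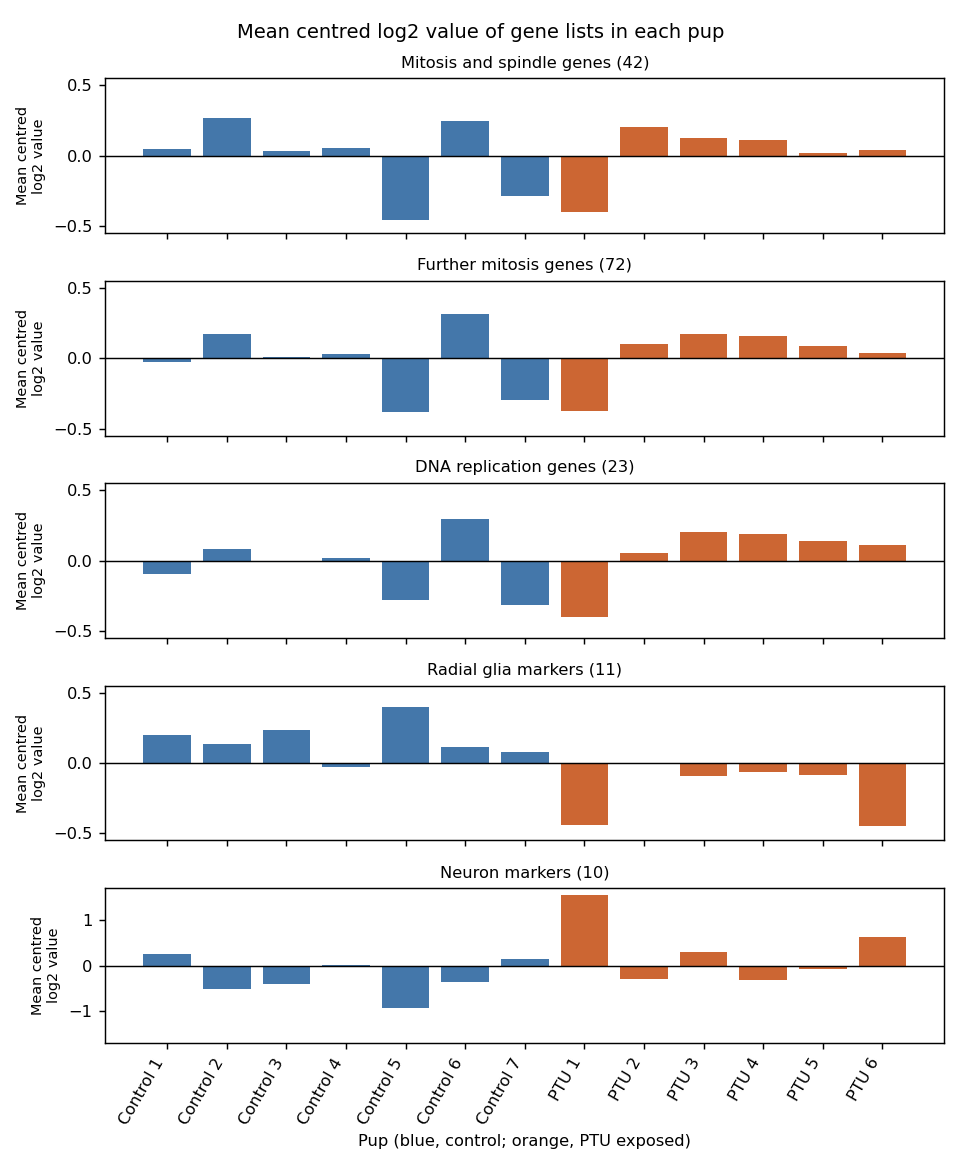
Mean centred log2 value of 5 gene lists (panels, the number of genes in parentheses) in each of 13 pups, control in blue and PTU in orange; the neuron panel has a wider axis. Both mitosis lists and the replication genes are below 0 in control pups 5 and 7 and PTU pup 1, whereas radial glia markers are below 0 in all 6 PTU pups and above 0 in 6 of 7 controls.

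Genes with both promoter motifs and those without were low in the same pups. The 18 genes with both had a median log2 difference of 0.069 and the 19 with an entry that lacked 1 or both had -0.0053. On the mean centred log2 scale the former stood at -0.41 in control pup 5 and 0.21 in control pup 6. The latter stood at -0.49 and 0.25. The median SD between pups of a group was 0.28 and 0.33.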

How the data were processed

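Posterior VZ of 7 control and 6 PTU pups was profiled by RNA-Seq. Per the labels and the methods of the study, the authors trimmed the reads with Trimmomatic, used STAR 2.7.8a with mRatBN7.2, divided ambiguous reads among transcripts by expectation/maximization in Partek, and rescaled pups with median ratio factors. The deposited values, normalized counts, are therefore a scaled signal and not whole counts. Columns with the authors' own DESeq2 comparison (p-value, FDR and fold change) were not used. Of the 14716 rows, 14466 carry Ensembl transcript identifiers. Between 88.1 and 89.7% of values from 20 to 150 were whole multiples of 1 step per pup (tolerance 0.02 of a step), short of nearly all, so no count model was run.

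The 14606 rows averaging 10 or more were tested as log2(normalized count + 1), which understates differences of low transcripts, with limma 3.58.1 in R 4.3.3 (empirical Bayes with trend) and Benjamini-Hochberg adjustment over all of them (threshold 0.05). For single genes all 1716 regroupings of the pups were enumerated (exact permutation, smallest p 0.000583). Correlations used 100000 permutations within groups. A planned pair with *Ndc80* is not analysed here. Within each of 10 roles, and in each further list with a named gene, the genes with the smallest and the largest unadjusted p are given with their values; *Cdk1*, *Ccnb1*, *Birc5*, *Tpx2* and *Mki67* were added after their values were seen. Members, lists and motifs were chosen with earlier results of these data known. The code was tested on simulated data for PTU against control: of 50 rows changed by 0.5 and of 50 changed by 1 on the log2 scale, limma recovered 18 and 43 (14606 rows). The same run held 50 rows changed by 2 and 50 changed by 4, of which 47 and 50 were recovered. Its noise was independent between rows, whereas the members varied together across pups. These shares therefore do not give the sensitivity for the members. Other steps ran in Python 3.11.15 with scipy 1.17.1 and pandas 2.3.3. Alternatives were TMM factors, equal totals, quantile normalization, pseudocounts of 0.1 and 10, no filter, a mean of 100 or more, rows of a gene summed, array weights, no trend, a robust prior, a replicate block and each pup left out.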

Additional observations from a re-analysis of the deposited data

Results flagged for a closer look

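Single pups far from the rest of their group were looked for in 86 groups of values (42 genes and their mean, in each of the 2 groups), and 8 were found, where chance gives about 1 in 20 of independent groups. These groups are not independent, since the genes varied together and the mean is taken over them. PTU pup 1 accounted for 7 of the 8, all low. It held 10207 normalized counts of *Mki67*, where the other 5 PTU exposed pups held 14834 to 16682. For *Ccna2* it held 755 against 1321 to 1590.3, and for *Aurka* 242 against 437 to 553. *Bub1b* stood at 959.8, *Plk1* at 469 and *Tpx2* at 1927 in this pup, below 1309.6, 715 and 2497 in the next lowest. Its mean centred log2 value over the 42 genes was -0.40, the others lying between 0.017 and 0.20. The same pup had the highest neuron marker level; the part of that in these values was not tested. *Aurkb* was high in PTU pup 2, at 1575 normalized counts against 992 to 1159.7.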

How the results depend on the processing

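No mitosis or spindle gene reached an adjusted p of 0.05 under any of the 12 alternatives or with any of the 13 pups left out. Over all rows, 0 passed with 13 pups, 40 with array weights, 18 (0.123%) with the replicate number as a block, and between 0 and 179 with a pup left out; the most was without PTU pup 2 and 7 passed without control pup 6. Between 1 and 6 members had an unadjusted p under 0.05 with a pup left out. There were 6 without PTU pup 1, beside 14.3% of all rows. There was 1, *Ube2c*, without control pup 3, PTU pup 3 or PTU pup 6, beside 12.6, 14.2 and 12.3% of all rows. The median log2 fold change of the members was 0.21 with equal totals, which move the median of all rows to 0.20, and from -0.062 to 0.11 with a pup left out. Pups of the same replicate number came from different litters, and the labels do not say what else the numbers stand for. Deviations of same-numbered pups correlated by -0.070 to 0.20, and only the pups numbered 2 were each other's best match. Whether same-numbered pups shared a batch was not tested. The block brought no member past the adjusted threshold. Control pup 7 has no partner of its number, so the block leaves it out of the difference, and the log2 differences under the block equal those without that pup (median -0.023 in both). The sign of 16 members was the same throughout, and 26 small differences changed sign somewhere. With equal totals the log2 fold changes that did so were *Cdk1* 0.064, *Ccnb1* 0.0078, *Bub1b* 0.14, *Mad2l1* 0.094, *Plk1* 0.20, *Kif18a* 0.19, *Kif20a* 0.18, *Kif20b* 0.075, *Kif23* 0.15, *Kif2c* 0.15, *Kif4a* 0.10, *Tpx2* 0.072, *Nuf2* 0.13, *Incenp* 0.14, *Prc1* 0.16, *Nusap1* 0.13 and *Ncapd2* 0.11. With array weights they were *Ccnb2* -0.062, *Plk1* 0.055, *Kif18a* 0.040, *Kif20a* 0.0038, *Kif23* 0.016, *Anln* -0.043 and *Prc1* 0.0074, with the block, and equally without control pup 7, *Ccnb2* -0.060, *Aurka* -0.042, *Cdc20* -0.014, *Kif11* -0.015, *Kif18a* 0.033, *Cenpf* -0.0078, *Top2a* -0.031 and *Anln* -0.041, with quantile normalization *Ccnb2* -0.0021, *Top2a* -0.0060 and *Anln* -0.0074, with a pseudocount of 10 *Ccnb2* -0.0021 and with TMM factors *Anln* -0.0026. Ranges over single pups left out, where the sign changed, were *Ccnb2* -0.084 to 0.11, *Ccna2* -0.0097 to 0.20, *Aurka* -0.056 to 0.19, *Bub1b* -0.15 to 0.029, *Bub3* -0.0075 to 0.11, *Plk1* -0.12 to 0.12, *Cdc20* -0.081 to 0.10, *Kif11* -0.022 to 0.12, *Kif18a* -0.074 to 0.068, *Kif20a* -0.14 to 0.12, *Kif23* -0.12 to 0.033, *Kif2c* -0.15 to 0.050, *Cenpf* -0.022 to 0.16, *Nuf2* -0.16 to 0.017, *Incenp* -0.15 to 0.042, *Top2a* -0.067 to 0.14, *Anln* -0.10 to 0.15, *Prc1* -0.11 to 0.044, *Nusap1* -0.20 to 0.042 and *Ncapd2* -0.17 to 0.029. Over all their alternatives, Pearson r ranged from 0.97 to 0.99 for *Mki67* and *Top2a*, 0.64 to 0.87 for *Cdk1* and *Ccnb1* and 0.80 to 0.96 for *Smc2* and *Smc4*. Some members that kept their sign with each pup left out also moved. Their log2 differences ran from -0.31 to -0.079 for *Ccnb1*, 0.048 to 0.24 for *Mki67* and 0.017 to 0.33 for *Cdc25c*. For *Tpx2* they ran from -0.23 to -0.042 and for *Kif4a* from -0.21 to -0.0016. The cause of these shifts was not tested.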
